A study of Mus musculus with 16 samples.

Results

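The genes described here are 41 genes of mitosis and chromosome segregation, taken by name from a fixed list and found by Ensembl identifier in the read count table of mouse adrenals. They are 41 of the 54838 genes in the table, and all 41 were among the 18214 genes that passed the filter on low counts and were tested. Each library was made from the total RNA of the adrenal of 1 mouse aged 4 weeks, of mixed genetic background. There were 4 groups of 4 libraries: female control, female Rspo1 GOF, male control and male Rspo1 GOF. GOF stands for gain of function. Rspo1 is the gene of R-spondin 1, which cells release and which makes neighbouring cells more responsive to WNT ligands. The allele, the promoter that drives it and the genotype of the controls beyond "control" are not given in the sources used here. What the groups ask of these genes is whether their RNA level differs with the genotype in each sex, and with sex in each genotype.

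In mitosis a cell divides its copied chromosomes equally between its daughters. CDK1 bound to cyclin B starts the process. Kinetochores, protein platforms on the centromeres, then tie each chromosome to the spindle, and a checkpoint holds the cell until all are attached. The anaphase-promoting complex ends the hold by marking securin and cyclin B for destruction, separase cuts the cohesin rings, and a contractile ring divides the cell. Most of these genes are switched on together late in the cell cycle by complexes that contain MuvB, B-MYB and FOXM1, and they are silent in resting cells, so that their RNA is widely used as a sign of dividing cells. In the adrenal cortex, dividing cells lie mainly in the outer zone beneath the capsule, from which new steroid-producing cells move inward. In whole tissue, fewer dividing cells and less of a transcript per dividing cell cannot be told apart.

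The sequences just before the start of these genes are shown because the genes share promoter elements known for late cell cycle control. The RefSeq promoter table of build GRCm38.p6 held 35 of the 41 genes. The 250 bases before the start were searched on both strands for TTTGAA, the core of the cell cycle genes homology region, which MuvB complexes bind, and for CCAAT, which NF-Y binds. They were also searched for TTTCCCGC, TTTCGCGC, TTTGCCGC and TTTGGCGC, forms of the E2F site. No 2 of the motifs share bases in the windows printed here. TTTGAA stood in 12 of the 35 windows (34.3%), against 18.3% of 27025 genes in the table and 13.3% of the 12700 of them that were tested here. CCAAT stood in 27 of the 35 (77.1%), against 37.5% of all genes and 39.5% of those tested, and at least 2 copies stood in 51.4% against 11.5%. An E2F form stood in 1 window (2.86%), that of Cdk1, against 2.16% of all and 3.54% of those tested. These matches are descriptions of letters, not of bound sites. Below are the windows, at most 150 bases and cut where an annotated exon begins, of 5 genes with TTTGAA near the start and described in detail further on, and of Ttk, which is described for its different pattern. Motifs on either strand are in capitals (TTCAAA and ATTGG are the other-strand forms), and each is printed 5′ to 3′ on the gene's strand. The windows are chr11:99024190-99024339 on the minus strand for Top2a, chr4:118437353-118437493 minus for Cdc20, chr10:69352939-69353062 minus for Cdk1, chr3:27153879-27154025 minus for Ect2, chr7:135716380-135716529 minus for Mki67 and chr9:83834539-83834688 plus for Ttk.
Top2a: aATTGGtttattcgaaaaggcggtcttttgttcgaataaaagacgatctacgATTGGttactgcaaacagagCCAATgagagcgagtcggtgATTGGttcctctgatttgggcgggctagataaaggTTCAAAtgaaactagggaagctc
Cdc20: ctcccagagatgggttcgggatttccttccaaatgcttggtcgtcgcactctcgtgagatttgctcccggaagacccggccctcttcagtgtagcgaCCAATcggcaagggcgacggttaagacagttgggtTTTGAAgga
Cdk1: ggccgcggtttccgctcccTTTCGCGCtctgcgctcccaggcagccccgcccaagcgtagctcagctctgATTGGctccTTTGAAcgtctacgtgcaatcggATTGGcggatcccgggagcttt
Ect2: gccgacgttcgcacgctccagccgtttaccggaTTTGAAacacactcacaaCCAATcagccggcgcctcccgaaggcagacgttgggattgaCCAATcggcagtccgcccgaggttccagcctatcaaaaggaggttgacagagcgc
Mki67: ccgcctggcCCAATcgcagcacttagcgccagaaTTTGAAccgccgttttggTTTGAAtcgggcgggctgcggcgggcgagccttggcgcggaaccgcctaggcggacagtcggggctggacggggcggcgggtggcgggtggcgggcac
Ttk: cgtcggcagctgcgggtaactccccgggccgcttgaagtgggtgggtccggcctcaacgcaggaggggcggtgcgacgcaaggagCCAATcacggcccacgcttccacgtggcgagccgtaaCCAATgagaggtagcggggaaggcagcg
The Top2a window held 4 CCAAT copies and 1 TTTGAA, and the Mki67 window held 2 TTTGAA copies. The Ttk window held 2 CCAAT copies and no TTTGAA.

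Libraries held 31275146 to 43003968 counted read pairs. Levels are given as CPM, counts scaled to 1000000 per library with TMM factors, in the order of the replicate numbers 1 to 4. Differences are log2 fold changes ± SE from the quasi-likelihood test of edgeR, and adjusted p-values were computed by Benjamini and Hochberg's method over the 18214 genes, with a threshold of 0.05. Where a bracket after a log2 fold change holds 1 number, that number is the adjusted p. Rspo1 itself measured 3.2 to 40.6 CPM in female controls and 354 to 532 CPM in female GOF, and 19.4 to 48.2 CPM in male controls and 534.9 to 972 CPM in male GOF. Ddx3y, on the Y chromosome, was at 0 in the 8 female libraries and at 137 to 166 CPM in the 8 male ones. Cortex markers summed to 31577 to 49008 CPM over the 16 libraries, while medulla markers summed to 4775 to 11465 CPM in controls and 198 to 883 CPM in GOF. Some libraries stood apart by RNA of other tissues: male control 2 held 8278 CPM of liver markers and female control 1 held 804 CPM of kidney tubule markers. Male GOF 1 held 1615 CPM of macrophage markers. Male control 1 held the most cortex RNA, 49008 CPM where the other male controls held 31577 to 33527 CPM, and the least endothelium RNA, 409 CPM where the other male controls held 639.6 to 934 CPM. The mice carry numbers that the labels do not explain. These fall into 4 ranges: the lowest holds female GOF 1, female control 1, male controls 1 to 3 and male GOF 1 and 2, the second holds female GOF 2 and 3 and female controls 2 to 4, the third holds female GOF 4 alone, and the highest holds male control 4 and male GOF 3 and 4.

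The genes were high or low together from library to library. Their summed level was 335, 629, 523 and 550.98 CPM in the 4 female controls, and 518, 1709, 1283 and 1840 CPM in the 4 libraries of female GOF. It was 85.8, 284, 411 and 270.1 CPM in male controls 1 to 4, and 182, 259, 417 and 235 CPM in male GOF 1 to 4. Female GOF 2, 3 and 4 held the highest sums of all, and female GOF 1 lay among the female controls. Relative to the mean of the female controls, the median gene stood at 1.01 in female GOF 1 and at 3.24, 2.61 and 3.65 in female GOF 2, 3 and 4. In female GOF 1, 36 of the 41 genes lay within the range of the 4 female controls, 3 above it and 2 below. Male control 1 was the lowest of the 16 libraries for 41 of 41 genes, with the median gene at 0.127 of the female control mean. Male control 3 and male GOF 3 were each the highest of their group for 41 of 41 genes.

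**Figure D1:**
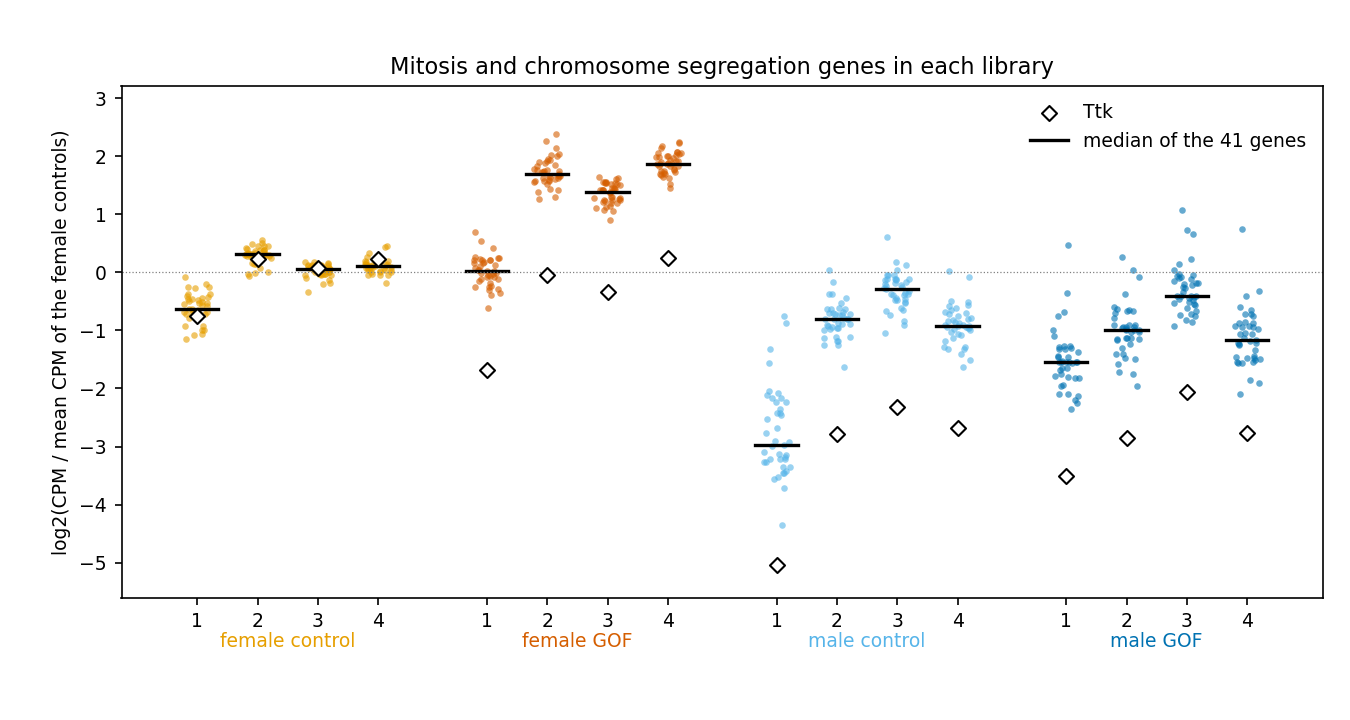
Level of the 41 genes in each of the 16 libraries, as log2 of CPM over the gene's mean CPM in female controls; each point is a gene, the bar is the median and the open diamond is Ttk. The genes of a library shift as a block, female GOF 2, 3 and 4 sit highest (median 3.24, 2.61 and 3.65 times the female control mean) and male control 1 lowest (0.127), and Ttk sits below the block outside the female controls.

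Per length, in the authors' FPKM averaged over 16 libraries, Top2a was the most abundant of the 41 at 26.7 FPKM, ahead of Cdc20 at 24.3, Racgap1 at 20.0, Pbk at 19.6 and Cdk1 at 16.3 FPKM. Kif4 (2.67 FPKM), Ncapg (2.41) and Ndc80 (2.11) were the least abundant. Top2a ranked first and Ndc80 last in each of the 4 groups. Top2a, at 20.7 ± 5.31 FPKM (SD, n = 4) in female controls, and Cdc20, at 19.6 ± 6.88 FPKM, did not differ beyond their spread. Other genes changed place with the group. Ttk ranked 18th of 41 in female controls and 38th, 39th and 40th in female GOF, male control and male GOF. Espl1 ranked 36th in female controls and 13th in male GOF. These ranks describe levels and were not tested.

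In females, the mitotic genes were higher in GOF than in control. The median log2 fold change was 1.41, a fold of 2.66, with quartiles of 1.29 and 1.52, against a median of 0.05 over all genes tested. In edgeR's test 35 of 41 genes rose and 0 fell, where 19% of all genes tested were called higher and 39.6% were called in either direction. Log2 fold changes were above 0 for 40 of 41 genes. An unadjusted p under 0.05 was found for 40 of the 41, and for 8736 of the 18214 genes tested. The 35 called genes had adjusted p-values from 0.000545 (Espl1) to 0.0406 (Prc1). The 6 genes not called were Ccna2 (1.34, adjusted p = 0.0542), Ccnb1 (1.28, 0.0723), Spc25 (1.06, 0.0844), Kif2c (1.16, 0.057), Hmmr (1.26, 0.0826) and Ttk (-0.30, 0.645). The groups overlapped for most genes through female GOF 1. Female GOF libraries all lay above all female controls for 3 genes, Espl1, Cenpe and Mki67, where the same was true of 17.4% of all genes tested. Female GOF 2, 3 and 4, without female GOF 1, lay above all 4 controls for 40 of 41 genes, where this was true of 21.4% of all genes tested. Leaving out 1 library changed the count of called genes. It was 7 of 41 without female control 1 (15.5% of all genes called higher), 8 without female GOF 2 (13.5%) and 5 without female GOF 4 (11.8%), shares near those of all genes. It was 19 without female control 3 (14.6%) or without female GOF 3 (13.8%), 22 without female control 4 (17%) and 40 without female GOF 1 (16.7%). Over these fits the median log2 fold change stayed between 1.17 and 1.67. Without female control 1, female control 3 and male control 2, chosen as libraries with liver or kidney RNA after the data had been seen, 1 gene was called, where 8.84% of all genes were called higher.

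In males, no difference between GOF and control was detected in the same genes. edgeR called 0 of 41 genes, where 36.9% of all genes tested were called. An unadjusted p under 0.05 was found for 1 of the 41 (Espl1), and for 8452 of the 18214 genes tested. DESeq2 called 1 gene (Espl1), where it called 40% of all genes. The median log2 fold change was 0.04, with 24 genes above 0 and 17 below. Its size changed with scaling. Its sign changed with weights for the libraries, with the mouse number range as a covariate and with single libraries. The median was 0.18 with 38 genes above 0 on the log2(FPKM + 1) scale, where the median of all genes was 0.10. On the log2(FPKM + 0.1) scale it was 0.27 with 38 above 0, where that of all genes was 0.12. With voom and quality weights for the libraries it was -0.10 with 10 above 0. Without male control 1 it was -0.26, and the leave-one-out range was -0.26 to 0.28. The SE of a single gene's log2 fold change had a median of 0.46 in males and in females alike. Male GOF libraries all lay above all male controls for 1 gene, Espl1, against 14% of all genes tested.

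**Figure D2:**
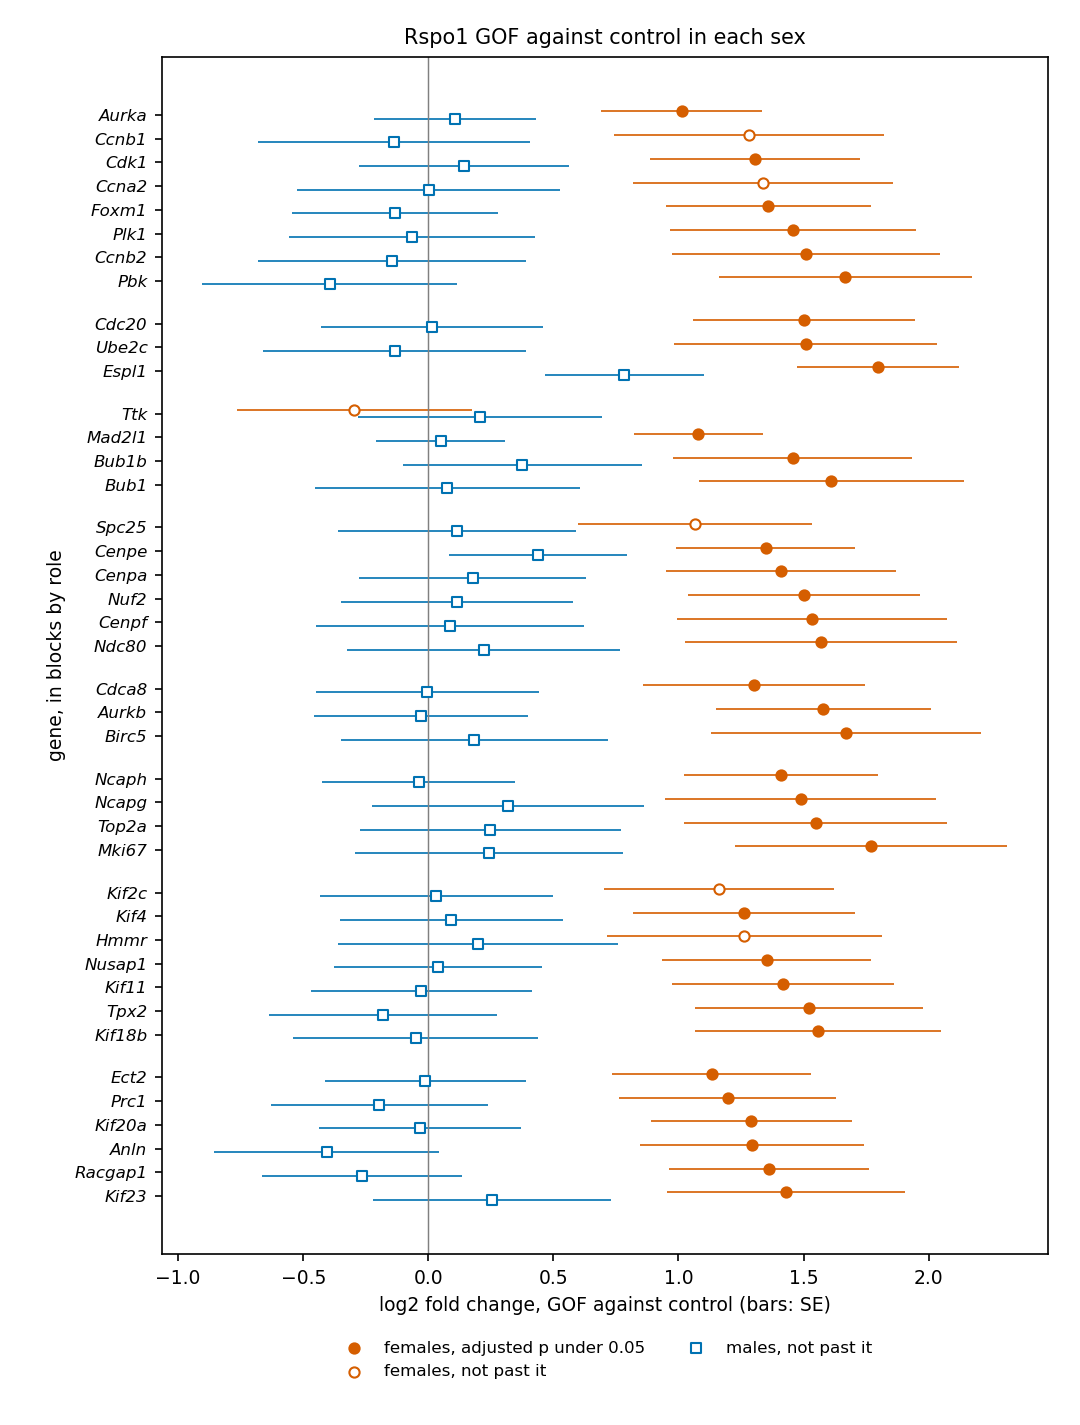
Log2 fold change of GOF against control for each of the 41 genes, in females and in males, with SE bars from one edgeR fit of 16 libraries. In females 40 of 41 estimates lie above 0 (median 1.41) and Ttk below, and in males they lie around 0 (median 0.04) with Espl1 highest.

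In controls, the estimates were lower in males than in females, but the share of the 41 genes that passed edgeR's test was near that of all genes. All 41 log2 fold changes were below 0, with a median of -0.94 (1.92-fold lower) against 0.08 over all genes. An unadjusted p under 0.05 was found for 16 of the 41, and for 6823 of the 18214 genes tested. edgeR called 4 of 41 genes lower, where 9.89% of all genes tested were called lower and 23.4% in either direction. The 4 were Ttk (-2.91 ± 0.51 SE, adjusted p = 0.00107), Hmmr (-1.73 ± 0.57 SE, adjusted p = 0.0394), Spc25 (-1.52 ± 0.48 SE, adjusted p = 0.0336) and Ect2 (-1.28 ± 0.40 SE, adjusted p = 0.0335). DESeq2 called 13, where it called 12.6% of all genes lower and 27.9% in either direction. Without female GOF 1 the count was 10, where 9.81% of all genes were called lower. It was 1 without female control 2, 3 or 4 or without male control 4, and 2 without male control 2, where 6.86 to 8.64% of all genes were called lower. The groups did not overlap for 5 genes, Pbk, Ttk, Nuf2, Spc25 and Kif2c, against 10.9% of all genes tested. Without male control 1, the lowest library, the median was -0.62 and 3 genes were called (Spc25, Hmmr and Ttk), where 10.2% of all genes were called lower. With the range of the mouse number as a covariate the median was -0.16 and 1 gene, Ttk, was called. In that fit 3.74% of all genes were called lower and 7.2% in either direction. Anln, Aurkb, Ccnb2, Cdc20, Cenpa, Espl1, Mad2l1, Ndc80 and Prc1 had estimates above 0 under at least 1 alternative, the highest being 0.50 for Espl1 and 0.35 for Cenpa.

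Among GOF mice, all 41 genes were lower in males than in females. The median log2 fold change was -2.37, 5.18-fold lower, against 0.03 over all genes, from -3.39 for Pbk to -1.13 for Espl1. edgeR called 41 of 41, with adjusted p-values from 0.000400 (Pbk) to 0.0366 (Cenpa), where 16.3% of all genes tested were called lower and 29.6% in either direction. The libraries of the 2 sexes did not overlap for 36 genes, against 15.7% of all genes. The 5 that overlapped were Espl1, Cenpa, Cenpe, Cenpf and Kif23. Leaving out 1 library gave 39 to 41 called genes. With the range of the mouse number as a covariate, 1 gene (Pbk) was called and the median was -1.52. In that fit 3.99% of all genes were called lower and 7.34% in either direction.

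**Figure D3:**
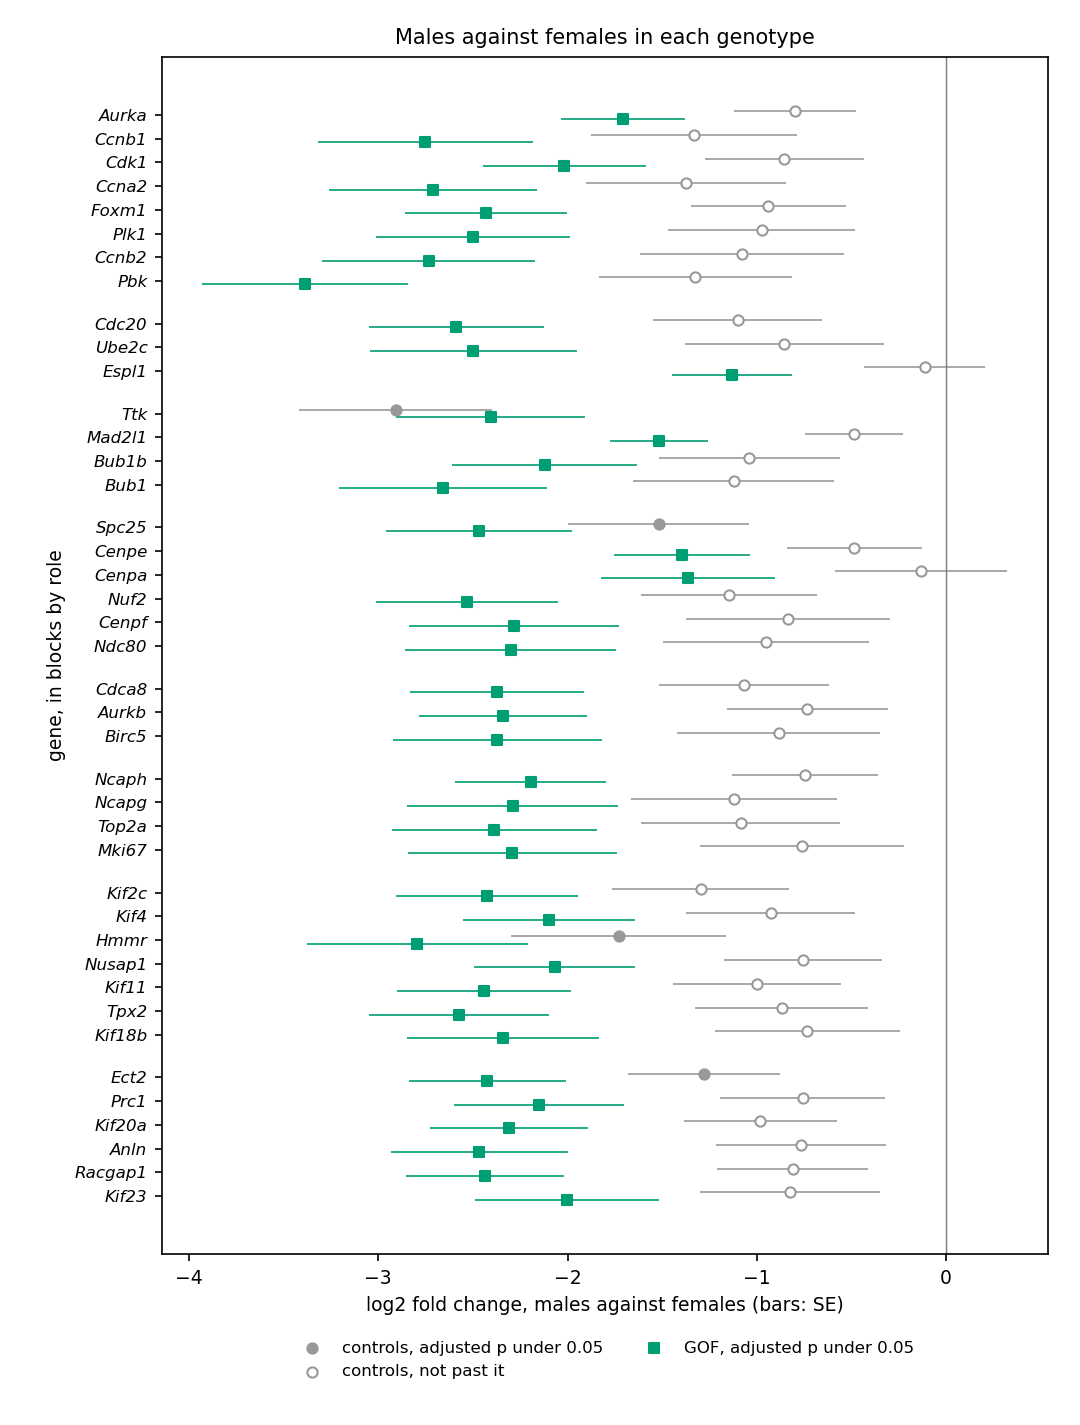
Log2 fold change of males against females for each of the 41 genes, in controls and in GOF mice, with SE bars from one edgeR fit. Controls lie below 0 (median -0.94) and GOF mice lower still (median -2.37), and Ttk is the lowest gene in controls.

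The difference between the GOF effects of the 2 sexes was tested as an interaction. edgeR called 0 of 41 genes, where 4.21% of all genes tested were called. The log2 difference (the male effect minus the female effect) had a median of -1.35 and was below 0 for 40 of 41 genes, from -2.06 for Pbk to 0.50 for Ttk, and the smallest adjusted p was 0.122. DESeq2 called 2 genes, Pbk and Racgap1, and 7.86% of all genes. Without male control 1, 3 were called (Pbk, Kif11 and Tpx2), beside 4.97% of all genes, and without female GOF 1, 2 were called (Mad2l1 and Racgap1), beside 4.58%. In the fit of all 16 libraries edgeR thus showed a difference between the sexes in the GOF effect for none of the 41 genes.

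The mouse numbers give a check within narrower sets. Among females of the second range, 2 GOF against 3 controls gave a median log2 ratio of 1.40 with 40 of 41 genes higher. On these 5 libraries edgeR called 40 of 41, where 9.04% of the 17246 genes tested were called higher and 23.8% in either direction. Among females of the lowest range there was 1 mouse a group, female GOF 1 and female control 1. The median log2 ratio was 0.66 with 39 of 41 genes higher. In males of that range, 2 GOF against 3 controls gave -0.22 with 37 lower, and in males of the highest range, 2 against 1 gave 0.24 with 35 higher. Among controls of the lowest range, 3 males against 1 female gave -0.31 with 37 lower, and among GOF mice of that range, 2 males against 1 female gave -1.29 with 41 lower. With the number range as a covariate, edgeR called 16 of 41 genes in females, where 16.3% of all genes were called higher and 34.5% in either direction. It called 0 in males, where 32.7% of all genes were called. The same fit called 1 gene in controls, Ttk (7.2% called), and 1 in GOF mice, Pbk (7.34%). The median sex difference in that fit was -0.16 in controls, against -0.94 without the covariate, and -1.52 in GOF mice. The lowest range holds both sexes and the other ranges 1 sex each, so that outside it sex and range cannot be told apart.

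**Figure D4:**
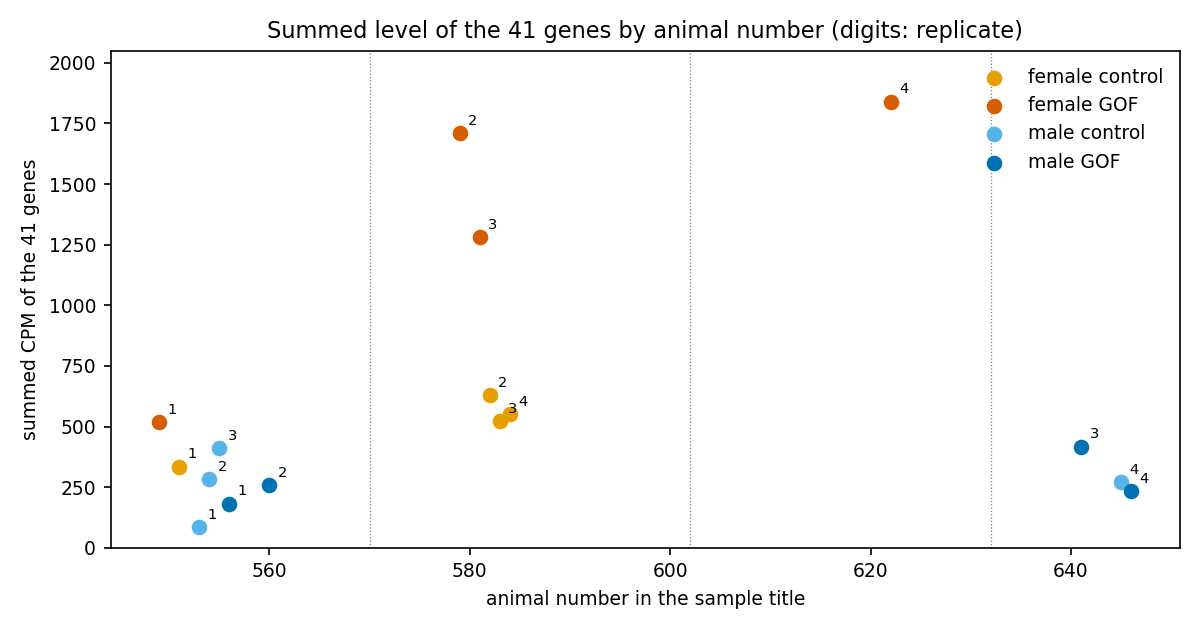
Summed CPM of the 41 genes in each library (vertical axis) against the number of the mouse in its label (horizontal axis), with groups by colour and replicate numbers beside the points. Dotted lines part the 4 ranges. In the second range female GOF 2 and 3 (1709 and 1283 CPM) lie above the 3 female controls, and in the lowest range female GOF 1 lies at 518 CPM.

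The kinases and cyclins that drive entry into mitosis rose in females in 6 of 8 cases (median 1.35), where 19% of all genes tested were called higher: Pbk, Cdk1, Ccnb2, Foxm1, Plk1 and Aurka were called, and Ccna2 and Ccnb1 were not. Cdk1, the kinase that starts mitosis, measured 12.5, 20.9, 18.6 and 16.6 CPM in the female controls, 17.7, 50.8, 46.2 and 55 CPM with female GOF, 3.2, 10.4, 15.7 and 8.59 CPM in the male controls and 6.86, 10.9, 15.9 and 8.25 CPM with male GOF. The groups of females overlapped through female GOF 1, and male control 1 was the lowest library. GOF against control gave 1.31 ± 0.42 (SE, adjusted p = 0.0235) in females and 0.14 ± 0.42 (SE, adjusted p = 0.82) in males, and male against female GOF gave -2.02 ± 0.43 (SE, adjusted p = 0.00282). Pbk, a mitotic kinase of the MAPKK family also called TOPK, measured 8.92, 17.3, 15.6 and 13.6 CPM in the female controls, 13.7, 56.4, 43.3 and 62.8 CPM with female GOF, 1.45, 6.09, 8.9 and 5.71 CPM in the male controls and 2.7, 3.57, 7.31 and 3.23 CPM with male GOF. All 4 male controls lay below all 4 female controls, and all 4 male GOF below all 4 female GOF. Pbk had the largest sex difference among GOF mice, at -3.39 ± 0.54 (SE, adjusted p = 0.00040), and its GOF effect was 1.67 ± 0.51 (SE, adjusted p = 0.0176) in females and -0.39 ± 0.51 (SE, adjusted p = 0.58) in males. Foxm1, the transcription factor of this gene programme, gave 1.36 in females (adjusted p = 0.0169) and -0.13 in males (0.83). Aurka, the centrosome kinase, had the smallest called change in this group, 1.01 (0.0216), and Plk1, which acts at centrosomes and kinetochores, gave 1.46 (0.0293).

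The genes that end the hold rose in females in 3 of 3 cases (median 1.51), against 19% of all genes. Cdc20, which activates the anaphase-promoting complex, measured 11, 28.9, 20.4 and 23.7 CPM in the female controls, 19.9, 66.4, 64.8 and 86.5 CPM with female GOF, 3.94, 11.2, 14.7 and 9.24 CPM in the male controls and 7.16, 11.2, 13.7 and 7.4 CPM with male GOF. Female GOF 2, 3 and 4 were above all other libraries, and the sexes did not overlap in GOF mice. The effect of GOF on the log2 scale was 1.5 ± 0.44 (SE, adjusted p = 0.0152) for females and 0.01 ± 0.44 (SE, adjusted p = 0.985) for males, and the sexes differed by -2.59 ± 0.46 (SE, adjusted p = 0.000846) within GOF. Ube2c, the ubiquitin-conjugating enzyme of that complex, gave 1.51 in females (0.0341) and -0.13 in males (0.866). Espl1 encodes separase, the protease that cuts cohesin. It measured 4.18, 5.52, 5.79 and 6.6 CPM in the female controls, 8.01, 26.5, 16.3 and 26 CPM with female GOF, 3.29, 5.68, 6.21 and 5.22 CPM in the male controls and 7.69, 6.66, 11.5 and 9.21 CPM with male GOF. GOF lay above control without overlap in both sexes, which holds for no other gene of the 41. GOF against control gave 1.8 ± 0.32 (SE, adjusted p = 0.000545) in females, the largest value of the 41, and 0.78 ± 0.32 (SE, adjusted p = 0.0656) in males, also the largest, where it passed 0.05 in 5 of 29 alternative settings. The interaction gave -1.02 ± 0.45 (SE, adjusted p = 0.218). As a share of the summed CPM of the 41, Espl1 held 0.877 to 1.25% in female controls, 1.27 to 1.55% in female GOF, 1.51 to 3.84% in male controls and 2.57 to 4.22% in male GOF.

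Of the 4 checkpoint genes, Bub1, Bub1b and Mad2l1 rose in females and Ttk was not called (median 1.27), against 19% of all genes called higher. Bub1b encodes BUBR1, a subunit of the complex that holds CDC20 in check, and measured 7.76, 13.8, 10.9 and 16.8 CPM in the female controls, 12.5, 37, 35.9 and 49.7 CPM with female GOF, 1.32, 6.7, 9.55 and 6.36 CPM in the male controls and 6.15, 7.57, 10.8 and 6.49 CPM with male GOF. Mad2l1 encodes MAD2, which binds CDC20, and measured 13.6, 23.3, 19 and 17.9 CPM in the female controls, 19.4, 45.1, 38.2 and 53.1 CPM with female GOF, 10.1, 14.2, 15.1 and 13.1 CPM in the male controls and 11, 14.2, 17.4 and 11.8 CPM with male GOF. For both genes female GOF 1 lay near the female controls. In females Bub1b rose by 1.46 ± 0.48 (SE, adjusted p = 0.026) and Mad2l1 by 1.08 ± 0.26 (SE, adjusted p = 0.00425). In males the values were 0.37 ± 0.48 (SE, adjusted p = 0.573) and 0.05 ± 0.26 (SE, adjusted p = 0.901). Bub1, a kinase of the outer kinetochore, gave 1.61 in females (0.0257) and 0.08 in males (0.928).

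Ttk encodes MPS1, the kinase that starts the checkpoint signal at kinetochores, and its values went their own way. It measured 8.33, 16.6, 14.9 and 16.6 CPM in the 4 female controls and 4.39, 13.6, 11.1 and 16.8 CPM in the 4 libraries of female GOF. In males it measured 0.431, 2.05, 2.81 and 2.2 CPM in controls 1 to 4 and 1.25, 1.94, 3.38 and 2.08 CPM in GOF 1 to 4. Female GOF overlapped female control, male GOF overlapped male control, and in controls the sexes did not overlap. The difference between GOF and control was -0.30 ± 0.47 (SE, adjusted p = 0.645) in females, the one value of the 41 below 0, and 0.21 ± 0.49 (SE, adjusted p = 0.773) in males. Males against females gave -2.91 ± 0.51 (SE, adjusted p = 0.00107) in controls and -2.4 ± 0.50 (SE, adjusted p = 0.00229) in GOF mice. In controls this was called under all 29 alternative settings, with adjusted p-values between 1.44e-08 and 0.0285. Ttk held 2.49 to 3.01% of the summed CPM of the 41 genes in female controls, 0.795 to 0.913% in female GOF, 0.502 to 0.815% in male controls and 0.685 to 0.888% in male GOF. The share in female controls did not overlap that of any other group. The gene lies on the plus strand at chr9:83834689-83872389, and no other annotated gene overlaps it.

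**Figure D5:**
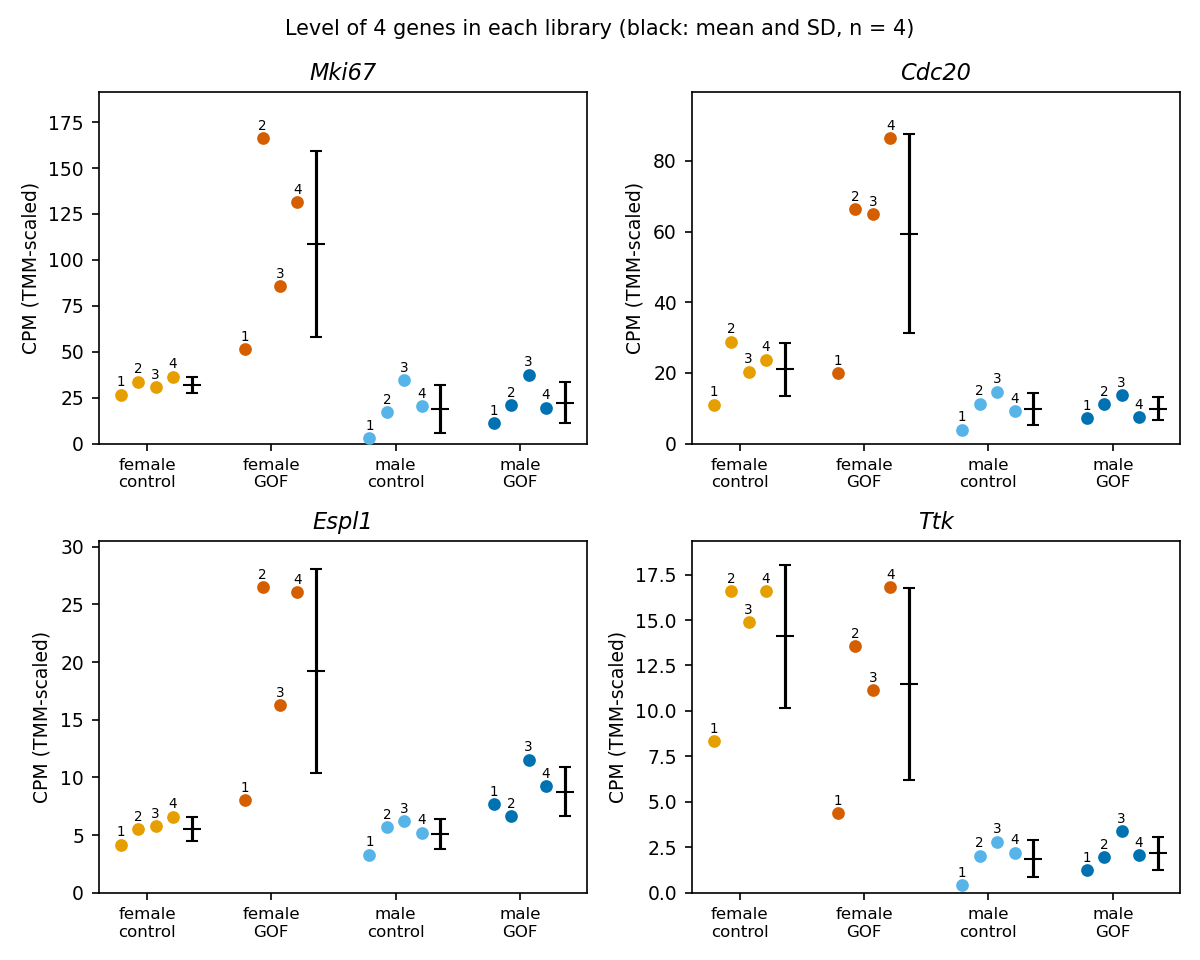
CPM of Mki67, Cdc20, Espl1 and Ttk in each library, with mean ± SD of 4 libraries per group. Mki67, Cdc20 and Espl1 are highest in female GOF 2, 3 and 4, while Ttk overlaps between female controls and female GOF and is low in both groups of males.

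Of the 6 centromere and kinetochore genes, 5 rose in females, against 19% of all genes, and Spc25 was not called (median 1.45). Cenpa encodes the histone variant that marks centromeres and measured 7.17, 10.5, 6.8 and 9.92 CPM in the female controls, 9.999, 28.7, 20.8 and 31.8 CPM with female GOF, 2.0, 7.67, 13 and 8.7 CPM in the male controls and 6.71, 8.17, 14.2 and 6.46 CPM with male GOF. The sexes overlapped in controls, and in GOF mice male GOF 3 lay above female GOF 1. Cenpa gave 1.41 ± 0.46 (SE, adjusted p = 0.0249) in females and 0.18 ± 0.45 (SE, adjusted p = 0.792) in males, and among GOF mice it had one of the smaller sex differences, -1.36 ± 0.46 (SE, adjusted p = 0.0366). That call was lost in 12 of 29 alternative settings, with adjusted p-values up to 0.564. Spc25, a subunit of the NDC80 complex that grips microtubules, measured 8.97, 11, 9.45 and 8.34 CPM in the female controls, 6.2, 24.5, 17.5 and 30.8 CPM with female GOF, 0.862, 3.98, 5.29 and 3.05 CPM in the male controls and 2.47, 3.34, 5.21 and 3.23 CPM with male GOF. All male controls were below all female controls. Spc25 was lower in male controls with a log2 fold change of -1.52 ± 0.48 (SE, adjusted p = 0.0336), and lower in male than in female GOF with -2.47 ± 0.49 (SE, adjusted p = 0.00171). Its partners Ndc80 and Nuf2 rose in females, by 1.57 (0.0324) and 1.5 (0.019). Cenpe, a kinetochore motor, gave 1.35 (0.00811) and Cenpf, a kinetochore-linked protein, 1.53 (0.0356).

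The chromosomal passenger complex corrects wrong attachments, and 3 of 3 genes rose in females (median 1.58), against 19% of all genes. Aurkb, its kinase, measured 5.12, 9.33, 9.39 and 9.86 CPM in the female controls, 9.41, 31.6, 24.1 and 35.6 CPM with female GOF, 1.78, 5.82, 7.82 and 4.84 CPM in the male controls and 3.5, 4.86, 7.21 and 4.26 CPM with male GOF. Female control 1 was low for its group. Aurkb gave 1.58 ± 0.43 (SE, adjusted p = 0.0096) in females, -0.03 ± 0.43 (SE, adjusted p = 0.965) in males and -2.34 ± 0.44 (SE, adjusted p = 0.00121) for males against females in GOF. Birc5 (survivin) gave 1.67 in females (0.0235) and Cdca8 (borealin) 1.3 (0.0308).

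The 4 genes of chromosome structure rose in females (median 1.52), against 19% of all genes. Top2a, the topoisomerase that untangles sister chromatids, measured 22.3, 43.2, 40.3 and 40.2 CPM in the female controls, 42.5, 149.8, 97 and 138 CPM with female GOF, 3.11, 19, 29.3 and 17.3 CPM in the male controls and 11.7, 19.4, 33 and 17.5 CPM with male GOF. Mki67 encodes Ki-67, the coat protein of mitotic chromosomes and a standard marker of dividing cells, and measured 26.7, 33.7, 30.8 and 36.4 CPM in the female controls, 51.5, 166, 85.5 and 132 CPM with female GOF, 2.98, 17.2, 34.7 and 20.3 CPM in the male controls and 10.9, 21, 37.5 and 19.5 CPM with male GOF. For Mki67 every female GOF library lay above every female control, while for Top2a female GOF 1 lay within the control range. The log2 fold changes in females were 1.55 ± 0.53 (SE, adjusted p = 0.0305) for Top2a and 1.77 ± 0.54 (SE, adjusted p = 0.019) for Mki67. In males they were 0.25 ± 0.52 (SE, adjusted p = 0.746) and 0.24 ± 0.54 (SE, adjusted p = 0.759). Ncapg and Ncaph, subunits of condensin, rose by 1.49 (0.0405) and 1.41 (0.010) in females.

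Among the 7 spindle genes, 5 rose in females, against 19% of all genes, and Kif2c and Hmmr were not called (median 1.35). Tpx2, which helps microtubules form and activates Aurora A, measured 11.1, 21.4, 19.3 and 19.7 CPM in the female controls, 20.2, 63.3, 50.4 and 71.4 CPM with female GOF, 2.8, 11.1, 14.9 and 10.3 CPM in the male controls and 5.59, 8.94, 13.5 and 6.43 CPM with male GOF. Nusap1, a protein that bundles spindle microtubules, measured 8.14, 12.4, 12 and 11.2 CPM in the female controls, 12, 34.5, 25.3 and 39.8 CPM with female GOF, 2.0, 7.05, 10.6 and 6.2 CPM in the male controls and 4.53, 5.8, 9.01 and 7.25 CPM with male GOF. Female GOF 1 lay near the controls for both. In females Tpx2 rose by 1.52 ± 0.46 (SE, adjusted p = 0.0167) and Nusap1 by 1.35 ± 0.42 (SE, adjusted p = 0.0188), and the male values were -0.18 ± 0.46 (SE, adjusted p = 0.786) and 0.04 ± 0.42 (SE, adjusted p = 0.953). The motors Kif11, which pushes spindle poles apart, Kif18b and Kif4 rose by 1.42 (0.0202), 1.56 (0.021) and 1.26 (0.0344). Hmmr, a spindle-associated protein, was one of the 4 genes lower in male than female controls.

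All 6 cytokinesis genes rose in females (median 1.29), against 19% of all genes. Racgap1, a subunit of centralspindlin with Kif23, measured 15.7, 28.7, 22.4 and 25.1 CPM in the female controls, 22, 70.8, 59.4 and 84 CPM with female GOF, 5.6, 13.2, 21.1 and 12.6 CPM in the male controls and 8.4, 11.3, 15.5 and 8.37 CPM with male GOF. Ect2, the exchange factor that activates RhoA at the cell equator, measured 11.9, 28.2, 22.5 and 19.9 CPM in the female controls, 17.4, 55.5, 44.4 and 63.5 CPM with female GOF, 3.57, 9.57, 12.4 and 8.43 CPM in the male controls and 7.05, 7.8, 11.7 and 7.07 CPM with male GOF. Anln, the scaffold protein anillin of the contractile ring, measured 10.8, 21.4, 17.6 and 17.8 CPM in the female controls, 13.6, 54.2, 40.5 and 57.4 CPM with female GOF, 3.75, 10.9, 14.9 and 10.2 CPM in the male controls and 4.35, 6.4, 11.7 and 7.49 CPM with male GOF. Female GOF 2, 3 and 4 were the highest libraries for all 3 genes. In females Racgap1 rose by 1.36 ± 0.40 (SE, adjusted p = 0.015), Ect2 by 1.13 ± 0.40 (SE, adjusted p = 0.035) and Anln by 1.29 ± 0.45 (SE, adjusted p = 0.0329). In males the values were -0.27 ± 0.40 (SE, adjusted p = 0.64), -0.01 ± 0.40 (SE, adjusted p = 0.986) and -0.41 ± 0.45 (SE, adjusted p = 0.51), with Anln the lowest of the 41. Ect2 was lower in male than in female controls, at -1.28 ± 0.40 (SE, adjusted p = 0.0335). Kif20a, Kif23 and Prc1, which build the central spindle, rose in females by 1.29 (0.0199), 1.43 (0.0274) and 1.2 (0.0406).

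Another 119 mitosis genes, on a list that holds none of the 41, were all tested. In females 92 were higher in GOF and 2 lower (median 0.90), where 19% and 20.6% of all genes tested were. The largest rises were those of Knl1, a kinetochore scaffold (1.78 ± 0.49 SE, adjusted p = 0.00999), Iqgap3 (1.73 ± 0.53 SE, adjusted p = 0.0187) and the spindle motor Kif15 (1.72 ± 0.38 SE, adjusted p = 0.00255). In males 3 were higher and 3 lower (median 0.08), where 15.2% and 21.8% of all genes were. Among controls 2 were higher and 12 lower in males (median -0.33), where 13.5% and 9.89% of all genes were. Among GOF mice 94 of 119 were lower in males, against 16.3% of all genes, with Kif14 (-2.85 ± 0.53 SE, adjusted p = 0.00112), Cdca3 (-2.85 ± 0.47 SE, adjusted p = 0.000455) and E2f8 (-2.82 ± 0.48 SE, adjusted p = 0.000509) lowest. By group, and against the same 19% of all genes, the rise in females was called for 24 of 28 further kinetochore genes and 20 of 26 further spindle and cytokinesis genes. It was called for 14 of 15 genes of condensin, cohesin and the control of cohesion. The counts were 8 of 15 for the anaphase-promoting complex with its regulators and 9 of 15 for MuvB, MYB, E2F and pocket protein genes. The list of the anaphase-promoting complex and its regulators, part of which also acts in resting cells, had a median of 0.18. Zwint, a kinetochore protein, fell in GOF in both sexes, with -0.46 ± 0.17 (SE, adjusted p = 0.0378) in females and -1.22 ± 0.17 (SE, adjusted p = 5.84e-05) in males. Of the 119, 11 were called with a negative interaction, where 4.21% of all genes were called in either direction, among them Cdc25b, a phosphatase that activates CDK1 (-1.45 ± 0.39 SE, adjusted p = 0.0486), Wee1, a kinase that restrains it (-1.17 ± 0.24 SE, adjusted p = 0.016), and Cks1b, a CDK-binding subunit (-1.0 ± 0.20 SE, adjusted p = 0.0136). The remaining 8 had adjusted p-values of 0.0165 to 0.0355.

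Markers of other cells were read in the same fit, where GOF was called higher for 19% of all genes in females and 15.2% in males, and lower for 20.6% and 21.8%. Medulla (8 of 8) and capsule (6 of 6) markers were lower in GOF in both sexes, and adipocyte markers were lower for 5 of 6 in females and 6 of 6 in males. Liver markers were called for 0 of 7 in females and lower for 7 of 7 in males, where male control 2 held 8278 CPM of them. Macrophage markers were called higher for 1 of 8 in females, a share below that of all genes, and for 5 of 8 in males. They summed to 211 to 338 CPM in the female controls and 280.4 to 646.4 CPM with female GOF, and to 354 to 497 CPM in the male controls and 536 to 1615 CPM with male GOF. Endothelium markers were called for 0 of 7 in females and higher for 2 of 7 in males, and T and B lymphocyte markers for 0 of 7 and 2 of 7. Among GOF mice, where the 41 genes were lower in males, macrophage markers were higher in males for 5 of 8, endothelium for 6 of 7, capsule for 4 of 6 and lymphocytes for 3 of 7, against 13.3% of all genes. The lymphocyte sum was 53.7 CPM in male GOF 2, 5.98 to 10.3 CPM in the other male GOF libraries and 3.03 to 7.89 CPM with female GOF. Cortex markers were lower for 4 of 7 and higher for 1, against 16.3% and 13.3%. Endothelium markers summed to 609.9 to 677 CPM with female GOF and 844 to 1092 CPM with male GOF. Among controls, macrophage markers were higher in males for 5 of 8, capsule for 3 of 6, adipocytes for 2 of 6 and liver for 5 of 7, against 13.5% of all genes. The liver sum was 8278 CPM in male control 2, and 21.3, 28.9 and 2.64 CPM in male controls 1, 3 and 4, within the 1.59 to 48.9 CPM of the female controls.

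Of the erythroid list, 11 of 12 genes were tested, and none was at 0 in all libraries of a group. In females 6 were higher in GOF and 0 lower, where 19% and 20.6% of all genes were. In males 1 was higher (Gata1) and 3 lower, where 15.2% and 21.8% of all genes were. Male GOF was below female GOF for 6 of 11 and above it for 1, again Gata1, where 16.3% and 13.3% of all genes were. Male controls were above female controls for 3 of 11 (Gata1, Alas2 and Hbb-bs) and below them for 1, where 13.5% and 9.89% of all genes were. The summed list was 1072 to 2051 CPM in male controls and 292 to 996 CPM in female controls, without overlap. Without the globins the list summed to 33.2, 23.2, 9.48 and 17.5 CPM in the 4 female controls and 90.7, 34.2, 20.6 and 33.1 CPM in the 4 libraries of female GOF. This sum was highest of the 16 libraries in female GOF 1, where the 41 genes were near the controls. Klf1, a transcription factor of red cell precursors, was at 4.06 CPM in female GOF 1, at 1.01, 0.567 and 1.14 CPM in female GOF 2, 3 and 4, and at 0.585 to 0.678 CPM in the female controls. The part of these cell types in the differences was not tested.

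Of the 41 genes, 21 overlap another annotated gene and 10 a protein-coding one: Ccna2, Foxm1, Cdc20, Ube2c, Cdca8, Ncapg, Kif4, Nusap1, Kif20a and Prc1. Whether counting used strand is not given in the sources used here, so reads of such pairs cannot be told apart.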

How the data were processed

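Adrenal RNA-seq libraries of 16 mice (4 groups of 4) were analysed. Per the labels' protocols, NEBNext Ultra libraries were made from total RNA with a RIN cut-off of 7.0 and sequenced as 150 bp paired ends. The submitters' processing notes name TopHat2 2.0.12, Bowtie2 2.2.3, HTSeq 0.6.1 and DESeq 1.18.0, with no role, build or strand setting. The authors deposited gene counts, used for all tests, and FPKM values, used for levels between genes and as an alternative. Gene symbols and positions came from GENCODE M21 (GRCm38), which matched 54723 of 54838 identifiers.

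Counts were filtered with filterByExpr, scaled by TMM and tested with edgeR 4.0.16 (robust quasi-likelihood, Benjamini-Hochberg, threshold 0.05) in 1 fit of all 16 libraries. Alternatives were DESeq2 1.42.0, limma 3.58.1 on log2(FPKM + 1) or log2(FPKM + 0.1), voom with quality weights for the libraries, other factors and filters, the mouse number range, and leaving out libraries. The procedure was tested on simulated data. The genes with values in every library are the 2 most abundant of each role by FPKM (1 in roles of 3) and the extreme genes of each comparison, and the printed promoters are those of such genes with TTTGAA near the start, plus Ttk, added after its values were seen. The genes and lists were chosen with earlier results of these data known. Mice are separate animals. The libraries set apart by RNA of other tissues were kept.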

Additional observations from a re-analysis of the deposited data

Results flagged for a closer look

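Of 168 group values examined (the 41 genes and their sum in 4 groups of 4 libraries), 5 held a library that lay farther from its group than Dixon's critical value for 4 samples allows, and chance alone gives about 1 in 20. Female control 1 was the low library for Top2a, at 22.3 CPM with the next at 40.2, and for Aurkb, at 5.12 CPM with the next at 9.33. Male GOF 3 was the high library for Ect2, at 11.7 CPM with the next at 7.80, for Bub1, at 4.46 CPM with the next at 2.29, and for Kif20a, at 8.89 CPM with the next at 5.43.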

How the results depend on the processing

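No call reversed its direction, but the sign of the male median, and of some uncalled genes in the control comparison, changed with the setting. The count of genes called in females was 35 and became 13 with no filter (6.8% of all genes called higher), 22 on log2(FPKM + 1) with no filter (10.3%), 16 with the mouse number range (16.3%), 6 without female control 1 and male control 2 (15.4%), and 1 when female control 3 was left out too (chosen after seeing the data; 8.84%). Leaving out 1 library gave 5 to 40 (11.8 to 19%). In males the count of 0 became 1 with DESeq2, upper-quartile factors, only the groups compared, or log2(FPKM + 0.1) (12.7 to 26.3% of all genes called higher), and 0 to 1 on leaving out 1 library (10.3 to 14.6%). In controls the 4 genes became 13 with DESeq2 (12.6% of all genes called lower), and 1 with no filter, log2(FPKM + 1) with no filter, voom, the number range, or without those 3 libraries (3.74 to 11.8%), and 1 to 10 on leaving out 1 library (6.86 to 10.4%). The number range moved the control median from -0.94 to -0.16. In GOF mice it gave 1 gene (3.99% of all genes called lower) and a median of -1.52, and leaving out 1 library gave 39 to 41 (12.3 to 16.6%). The interaction gave 2 with DESeq2 (7.86% of all genes called) and 0 to 3 on leaving out 1 library (2.03 to 5.13%). The cause was not tested. Leave-one-out medians were 1.17 to 1.67 in females, -0.26 to 0.28 in males, -1.27 to -0.62 in controls, -2.65 to -2.15 in GOF mice and -1.67 to -1.06 for the interaction. No paired analysis was possible because replicate numbers follow accession order and pair no mice. Some genes had few reads: Ndc80 and Ncapg had 12 reads in their lowest library. How far this limited precision was not tested.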
